A study of Mus musculus with 3 samples.

Results

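Mature oligodendrocytes of the mouse nucleus accumbens, the glial cells that wrap axons in myelin, are described here from single-cell RNA counts of 3 libraries. A cell was taken as a member when it held at least 3 unique molecular identifiers (UMIs, tags that let each captured RNA molecule be counted once) of the myelin genes Mog, Mag, Ermn and Cldn11 together, with at least 2 of the 4 detected. It also had to hold no UMI of the astrocyte genes Aqp4 and Gja1, none of the precursor genes Pdgfra and Cspg4, and at most 1 of the neuronal genes Snap25 and Syt1. Of 11625 deposited cells, 10291 had 300 genes or more and no more than 20% of UMIs from mitochondrial genes, and 1143 of these were members: 414 in library 1, 463 in library 2 and 266 in library 3. The members were thus chosen on their own RNA, and the genes of the gate are not results.

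The study labelled cells of Thy1::ChR2 mice, a strain in which the neuronal Thy1 promoter drives the light-gated channel channelrhodopsin. FLiCRE, a tool that writes a calcium rise during light into transcription of a reporter, was applied while the channel was stimulated in the nucleus accumbens, a part of the ventral striatum. The tissue was a coronal dissection of 400 um, and all 3 samples share strain, labelling and stimulation, so there is no unlabelled or unstimulated group. The labels give no age, no sex and no number of animals, nor do they say that the samples came from separate animals. The p-values therefore rest on how the difference within a library varies over these 3 libraries, not over animals known to be separate.

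Oligodendrocytes arise from dividing precursors that carry the receptor Pdgfra, pass through a short premyelinating stage, and then make large amounts of myelin protein, lipid and cholesterol. Sox10, Olig1 and Olig2 are transcription factors of the whole lineage, whereas Myrf and Nkx6-2 are known for the myelinating stage. Mature cells also supply axons with metabolites, handle iron and couple to astrocytes through connexins, and they are known to differ among themselves in genes such as Opalin, Klk6, Ptgds, S100b and Il33.

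The 3 libraries differed in composition and depth. Members were 17.6% of the kept cells of library 1 (95% Clopper-Pearson interval 16.1 to 19.2%), 7.62% of library 2 (6.96 to 8.31%) and 14.3% of library 3 (12.7 to 16.0%), which gives 13.2% ± 5.09 (SD, n = 3). The members and all other cells with at most 1 UMI of Snap25, Syt1 and Snhg11 are called non-neuronal here. Snhg11 was not limited in the members. Of these non-neuronal cells members were 25.3%, 22.5% and 29.0%. Shares follow dissection and cell survival as well as tissue, and the intervals cover counting error only. Median depth per member was 956, 2054 and 4074.5 UMIs in libraries 1 to 3, against 908, 1111 and 1822 in the other 3467 non-neuronal cells, so share of cells with a UMI is also given at 1 depth. Pairs of libraries shared 13, 7 and 22 barcodes among the deposited cells, and no barcode of a member was shared.

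Levels of the gate genes in the members follow from the gate itself and are given only as a description. Cldn11, a tight-junction protein of myelin, had a UMI in 97.8%, 98.7% and 98.5% of members, and its level was 4631, 4521 and 5739 CPM (counts in 1000000 UMIs of the summed library), against 126, 246 and 558 CPM in the other non-neuronal cells. Mog, a protein of the outer myelin surface, had a UMI in 75.6%, 84.2% and 93.2%. Cells near the threshold had lower levels of an oligodendrocyte gene outside the gate than the members as a whole. The 33 cells with a gate sum of exactly 3 (22, 6 and 5 per library) had Trf, the iron carrier transferrin, at 4744, 2392 and 2670 CPM, and the 33 cells just outside with a sum of 2 (12, 15 and 6) at 2189, 1213 and 1635 CPM, while all members had 7686, 8490 and 11563 CPM. Mbp and Mobp, 2 further myelin genes, did not follow Trf throughout. In library 3 Mbp was at 119474 CPM just inside and 43398 CPM just outside, against 12033 CPM in all members, and Mobp at 20077 CPM just inside and 6200 CPM just outside, against 4109 CPM. In library 1 Mbp was at 16759 CPM just inside, against 14864 CPM in all members.

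RNA of other cell types was low but present in the members. The 9 neuron markers summed to 193, 661 and 184 CPM in libraries 1 to 3, against 10178 to 13804 CPM in gated neurons, and all 9 had a UMI. The 9 markers of spiny neurons, the main neurons of the accumbens, stood at 202, 1086 and 176 CPM, so library 2 held the most neuronal RNA in its oligodendrocytes. Markers of microglia summed to 441, 823 and 140 CPM, and those of astrocytes to 536, 672 and 420 CPM, with 6 of 8 detected, as Aqp4 and Gja1 are 0 by the gate. The 5 markers of newly formed oligodendrocytes (Gpr17, Neu4, Bmp4, Enpp6 and Bcas1) summed to 337, 263 and 308 CPM, with all but Neu4 detected. In the precursors gated below they summed to 546, 459 and 478 CPM. Markers of ependymal and choroid cells were all at 0. A repeat without members that held 2 or more UMIs of 11 microglial, vascular, fibroblast and T cell genes (C1qa, C1qb, C1qc, Csf1r, Cldn5, Flt1, Rgs5, Vtn, Dcn, Cd3d and Cd3e) gave 4885, 923 and 55 genes past the threshold in the 3 comparisons that follow, against 4936, 1004 and 65 with them. The part of neuronal and astrocyte RNA in the results was not tested.

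Against the other non-neuronal cells of the same libraries, mature oligodendrocytes carried more RNA of myelin proteins, of myelin lipid enzymes, of iron and pH handling and of their own connexins, and less of astrocyte, microglial and mural genes. Counts summed per library entered edgeR's quasi-likelihood test, in which the library was a block and p-values were adjusted by Benjamini-Hochberg, and "higher" or "lower" is used below only for genes with an adjusted p under 0.05. Of 10176 genes tested, 2198 were higher (21.6%) and 2738 lower (26.9%). Because the cells were selected for myelin RNA, these calls describe the selected cells and their counts are not read as evidence.

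The genes with the largest log2 fold changes, among those with a mean of 200 CPM or more in the higher class and the same direction in all 3 libraries, include many with known roles in the myelin sheath. Opalin, a transmembrane protein of oligodendrocytes, was at 1333, 1282 and 1231 CPM in members of libraries 1 to 3 and at 44.5, 79.4 and 107 CPM in the other cells. Its mean was 1282 ± 51.2 CPM against 77.0 ± 31.3 CPM (SD, n = 3), a log2 difference of 4.43 (SE 0.247). Nkx6-2, a homeobox factor of the late lineage, was at 855, 636 and 1012 CPM against 18.6, 48.9 and 123 CPM, a log2 difference of 4.25 (SE 0.376). Car14, a carbonic anhydrase that acts on the cell surface, was at 228, 191 and 213 CPM against 3.32, 13.4 and 25.9 CPM, a log2 difference of 4.26 (SE 0.386). For all 3 genes every oligodendrocyte library lay above every library of other cells, as it did for 13.6% of all genes, while 35.8% of all genes lay wholly below. Nothing is read from these shares for genes of chosen cells, and each was absent from the precursor cells described below.

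The promoters of these 3 genes are shown because the genes move together in both comparisons of classes. Each run is the 250 bases before the RefSeq transcription start on the strand of the gene (build GRCm38.p6), with capitals for matches to ACAAAG, the core letters of SOX-type factors such as Sox10, searched on both strands.
Opalin, minus strand, chr19:41077114-41077363: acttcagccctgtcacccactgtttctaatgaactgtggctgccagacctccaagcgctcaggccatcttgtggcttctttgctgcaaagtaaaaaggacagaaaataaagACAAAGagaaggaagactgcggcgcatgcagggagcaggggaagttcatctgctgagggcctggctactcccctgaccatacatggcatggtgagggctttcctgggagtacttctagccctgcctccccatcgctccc
Nkx6-2, minus strand, chr7:139582798-139583047: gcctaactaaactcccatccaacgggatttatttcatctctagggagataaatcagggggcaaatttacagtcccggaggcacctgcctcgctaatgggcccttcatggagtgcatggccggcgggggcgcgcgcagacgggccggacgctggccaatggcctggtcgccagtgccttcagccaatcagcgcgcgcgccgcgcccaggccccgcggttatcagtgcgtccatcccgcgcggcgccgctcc
Car14, minus strand, chr3:95904686-95904935: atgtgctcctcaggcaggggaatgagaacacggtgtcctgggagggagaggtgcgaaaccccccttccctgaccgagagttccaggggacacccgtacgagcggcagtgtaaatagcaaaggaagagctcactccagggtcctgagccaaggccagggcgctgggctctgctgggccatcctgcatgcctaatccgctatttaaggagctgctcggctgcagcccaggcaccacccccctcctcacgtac
The Opalin window held 1 match and the other two held none, and the Car14 window overlaps a GENCODE model of Car14. Of 32851 windows of this length in the RefSeq table, 5408 (16.5%) held the letters, and so did 5 of the 14 windows of the 8 leading genes that the table lists. The letters CTGGCAC or CTGGTAC, bound by Myrf-type factors, occurred in 5.93% of all windows and in none of those 14. A match is a description of the letters only.

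Tnni1, a troponin subunit known from slow muscle fibres, led the list with 243, 224 and 252 CPM in members against 5.98, 13.0 and 19.6 CPM, a log2 difference of 4.54 (SE 0.269). Klk6, a secreted serine protease of myelinating cells, was at 1120, 1349 and 1768 CPM against 27.9, 64.8 and 204 CPM, a log2 difference of 4.50. Both genes were far apart from the other cells in each library, although the reference of library 3 was the highest for both. Trf was at 7686, 8490 and 11563 CPM against 386, 520 and 1177 CPM, a log2 difference of 4.19. Fa2h, which hydroxylates the fatty acids of myelin lipids, Gjb1 (connexin 32), Aspa, which splits N-acetylaspartate, the glycosyltransferase gene Galnt6 and Gm15440 had log2 differences from 4.19 to 4.35.

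**Figure D1:**
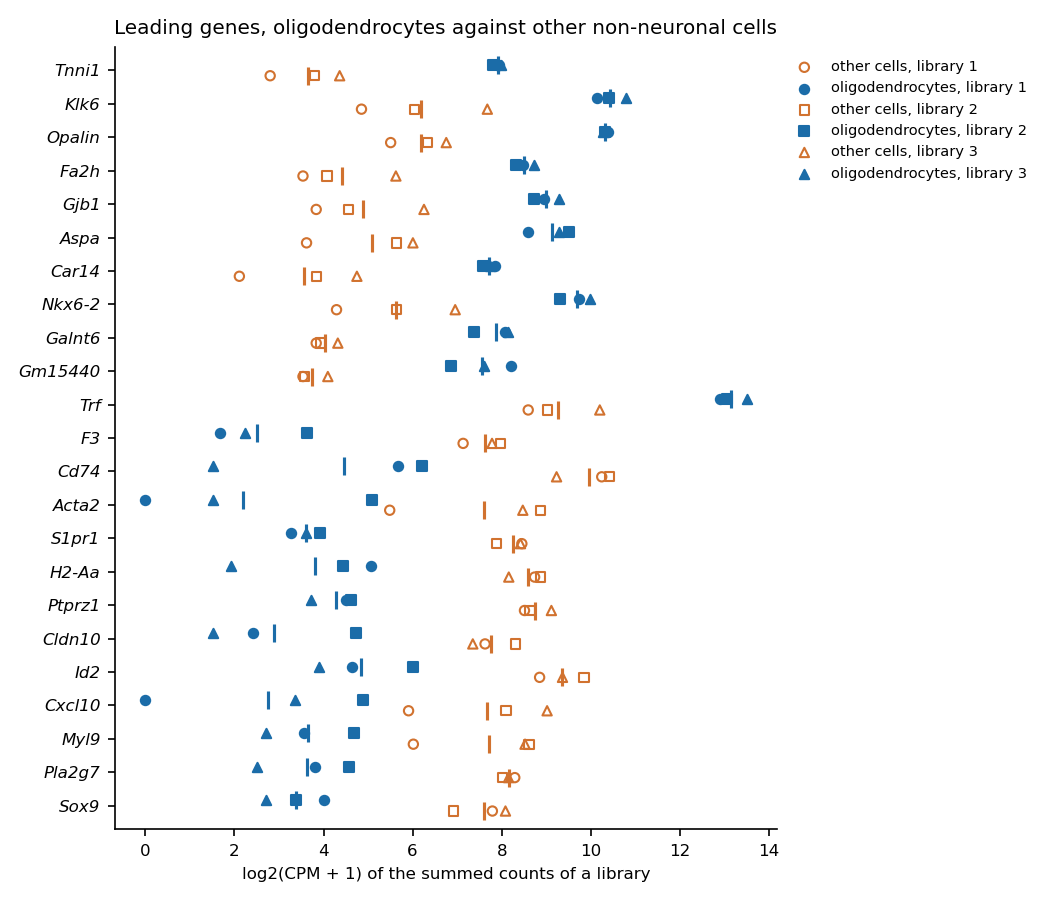
Levels of the named genes that were higher (top, Tnni1 to Trf) and lower (bottom, F3 to Sox9) in mature oligodendrocytes (filled) against other non-neuronal cells (open), as log2(CPM + 1) of the summed counts; each symbol is 1 library and the vertical bar is the mean of 3. In every gene plotted the 3 libraries of 1 class lie on 1 side of the 3 of the other; Opalin spans only 1231 to 1333 CPM in the members.

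The differences were larger when cells of the reference that hold gate genes were left out. Of the 3467 other non-neuronal cells, 573 (16.5%) held a UMI of a gate gene, and 122 held 3 or more. The share with any was 9.25%, 18.5% and 25.3% in libraries 1 to 3. That is the order of the Opalin level of the reference, and also of its median depth (908, 1111 and 1822 UMIs). Without those cells the log2 difference of Opalin was 7.01 and that of Trf 6.07. The cells left out were picked by myelin RNA, so a rise follows in part from that choice, and its cause was not tested.

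The genes lowest in the members are known from other cell types, and their levels by class follow that. F3, the coagulation starter tissue factor, was at 2.17, 11.3 and 3.72 CPM in members against 139, 250 and 219 CPM, a log2 difference of -4.77. S1pr1, Cldn10, Id2, Cxcl10, Pla2g7 and Sox9 were highest in gated astrocytes, as F3 was. Cd74, the invariant chain of MHC class II, had a log2 difference of -4.67 and was highest in microglia and macrophages (2242 CPM), as was H2-Aa (789 CPM). Acta2 and Myl9, contractile genes of vessel walls, were highest in mural cells with 1923 and 2844 CPM, and Ptprz1, a phosphatase of progenitors, in precursors with 1702 CPM.

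Set against 6 other gated classes one at a time (precursors, astrocytes, microglia and macrophages, endothelial cells, mural cells and neurons), the members had the highest mean of each of the leading genes named above. Astrocytes were gated by at least 3 UMIs of Aqp4 and Gja1, and microglia and macrophages of C1qa, C1qb and Csf1r. Endothelial cells were gated likewise by Cldn5 and Flt1, and mural cells by Rgs5 and Vtn. Neurons held at least 5 UMIs of Snap25, Syt1 and Snhg11. These classes could hold at most 1 UMI of the myelin gate genes, and precursors none. Cells with more myelin RNA were thus left out, so the distance to the members is partly set by the gates. The next class was far lower. Opalin was at 1282 CPM in members and at 18.6 CPM in endothelial cells, Fa2h at 366 CPM against 8.62 CPM in precursors, and Trf at 9246 CPM against 518 CPM in microglia. Mbp RNA, which is carried into myelin and is found outside cell bodies, was spread more widely: 12763 CPM in members, but 2323 CPM in mural cells, 1445 CPM in microglia and 1215 CPM in astrocytes. At 1000 UMIs per cell, Mbp had a UMI in 29.7% of neurons and 29.8% of microglia, classes that form no myelin. Whether those UMIs are free RNA or RNA of the cells themselves was not tested. Sox10 separated the lineage: its mean was 262 CPM in members and 312 CPM in precursors, and between 0.8 and 2.9 CPM in the other 5 classes.

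**Figure D2:**
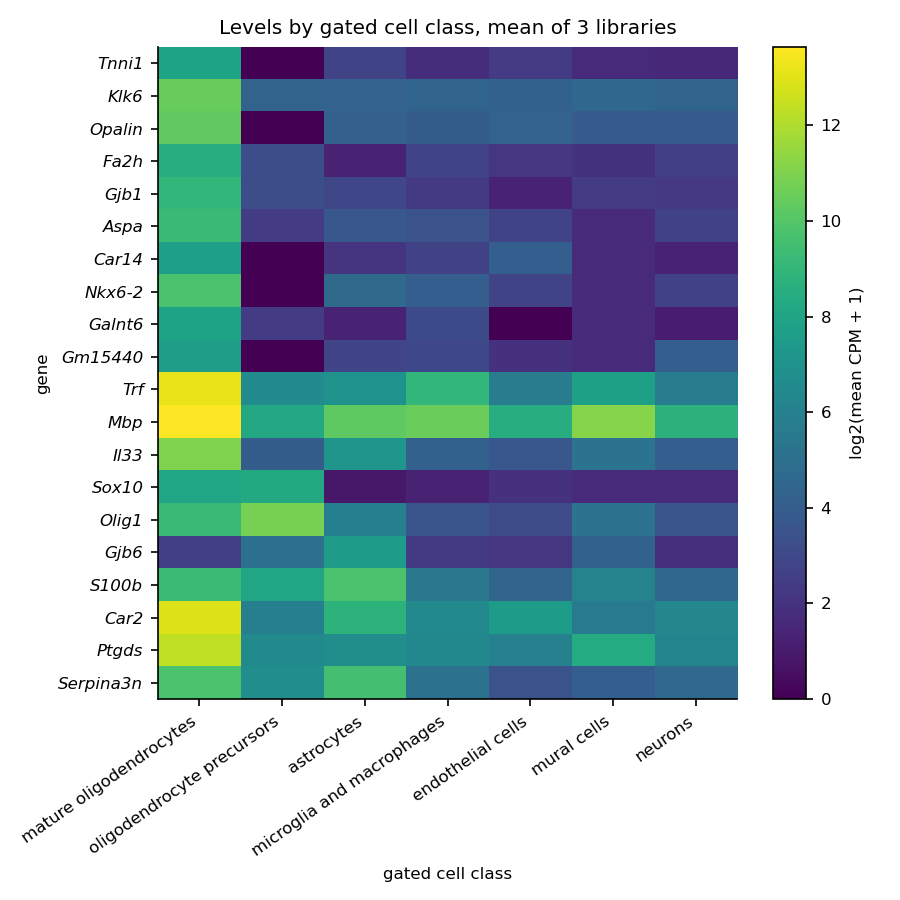
Mean level of 20 genes in 7 gated cell classes, as log2(mean CPM + 1) over 3 libraries, with colour from dark (0) to yellow (highest). The leading genes (Tnni1 to Trf) are brightest in the column of mature oligodendrocytes, Sox10 is bright in members and precursors alone (262 and 312 CPM), and Gjb6 and S100b are brightest in astrocytes (183 and 879 CPM).

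Myelin protein genes were higher throughout. All 21 of the 22 listed genes that could be tested were higher in members, beside 21.6% of all genes, with a median log2 difference of 3.33 against -0.03 over all genes. Mbp, which compacts the membrane, was at 14864, 11392 and 12033 CPM against 1338, 1498 and 5342 CPM (log2 difference 2.85, SE 0.374). Mobp was at 5450, 3129 and 4109 CPM against 269, 320 and 1096 CPM, and Cnp, an enzyme that keeps cytoplasmic channels in myelin open, at 3378, 3057 and 3220 CPM against 210, 276 and 402 CPM. Members and other cells did not overlap for any of these 3 genes. Besides Opalin, large differences were found for Mal (log2 difference 4.12) and Tspan2 (3.98).

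Each list below is set beside the same shares of all genes, 21.6% higher and 26.9% lower. Of 18 transcription factors of the lineage, 11 were higher and 7 lower, with a median of 1.73. Zfp536, a zinc finger repressor, was at 97.7, 48.2 and 84.5 CPM against 5.31, 1.67 and 8.06 CPM (log2 difference 4.28), St18 had a log2 difference of 4.02, and Myrf, which switches on myelin genes, was at 193, 106 and 153 CPM against 9.96, 6.69 and 22.4 CPM (3.88). Among the 7 lower were Hes5 (-4.69), Id2 (-4.16) and Id4 (-3.74), known to hold progenitors back from maturing. The reference here is all other non-neuronal cells rather than progenitors, and Id2 was highest in astrocytes (1486 CPM). Hes5 was at 0, 16.1 and 1.86 CPM in members, so its few counts sat mainly in library 2.

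Enzymes of myelin lipid and sterol synthesis were higher in 22 of 26 and lower in 2, with a median of 1.36. The count depends on the setting, as 16 of the 26 were higher with DESeq2 and 15 without library 2. Besides Fa2h and Aspa, Pex5l (3.97) and Ugt8a, which makes galactosylceramide (3.87), differed by most. Ugt8a was at 339, 472 and 292 CPM in members against 15.9, 33.4 and 46.6 CPM. Steps of cholesterol synthesis differed less, as Hmgcs1 shows with 115, 150 and 164 CPM against 60.4, 74.8 and 116 CPM, a log2 difference of 1.12. Elovl5 (-0.51) and Plp2 (-2.0) were lower.

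Of 20 genes of iron, ion and metabolite handling 12 were higher and 7 lower, with a median of 1.99. Car2, a cytosolic carbonic anhydrase, was at 4097, 8387 and 11109 CPM against 189, 641 and 1348 CPM, a log2 difference of 4.03. Fth1, the heavy chain of the iron store ferritin, was at 49719, 31083 and 34464 CPM against 12303, 10634 and 15729 CPM, a log2 difference of 1.88. The glutathione transferase Gstp1 had a log2 difference of 3.54. Lower were the metallothionein Mt2 (441, 137 and 194 CPM against 4422, 1008 and 3661 CPM, log2 difference -3.17), both lactate dehydrogenase chains (Ldhb -1.97, Ldha -1.81) and Gstm1 (-1.92).

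The connexins, which form gap junctions, divided by cell type. Gjc3 (connexin 29) was at 269, 223 and 197 CPM in members against 13.9, 38.9 and 43.7 CPM, a log2 difference of 3.16, and Gjb1 was also higher. Gjb6 (connexin 30), which astrocytes place opposite, was at 2.17, 8.51 and 3.72 CPM against 67.1, 83.2 and 56.4 CPM, a log2 difference of -3.39. Of cytoskeleton and transport genes 17 of 22 were higher and 0 lower, with a median of 2.69. Anln (4.05), the tubulin Tubb4a (4.0), Ppp1r14a (3.94) and Stmn4 (3.70) differed by most.

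Among receptors and signals 16 of 23 were higher and 5 lower. S1pr5, the sphingosine phosphate receptor of oligodendrocytes, was at 169, 108 and 116 CPM against 3.98, 4.18 and 13.2 CPM, a log2 difference of 4.51, whereas S1pr1 was among the lowest genes. Il33, an alarm cytokine held in the nucleus, was at 918, 2400 and 2879 CPM against 57.1, 195 and 359 CPM, and library 1 was low in both classes. Its mean of 2066 CPM in members compared with 138 CPM in astrocytes. Ptgds, which makes prostaglandin D2 (log2 difference 3.82), and the orphan receptor Gpr37 (3.76) followed. Kitl (-3.19), Notch1 (-2.68), Gpr17 (-2.50) and Igf1r (-1.73) were lower by most.

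Genes of precursors and newly formed cells were lower in 15 of 22 and higher in 4. The 4 were Enpp6 (4.18), Bcas1 (2.17), Olig1 (1.97) and Olig2 (1.49). Immediate early and stress genes, which tissue dissociation can induce, were lower in 15 of 22 and higher in 4. Junb was at 45.6, 70.0 and 47.4 CPM in members against 384, 391 and 409 CPM (log2 difference -2.55), and Hsp90aa1, a chaperone, at 667, 1207 and 1196 CPM against 240, 551 and 451 CPM (1.65). Of interferon and reactive genes 7 of 22 were higher and 7 lower, not far from the 21.6% and 26.9% of all genes; their median of -0.07 became 0.11 without library 1 and 0.12 without library 3. Serpina3n, a protease inhibitor that reactive glia make, was at 814, 691 and 1073 CPM against 399, 232 and 344 CPM (log2 difference 1.73). Its mean was 859 CPM in members and 766 CPM in astrocytes.

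**Figure D3:**
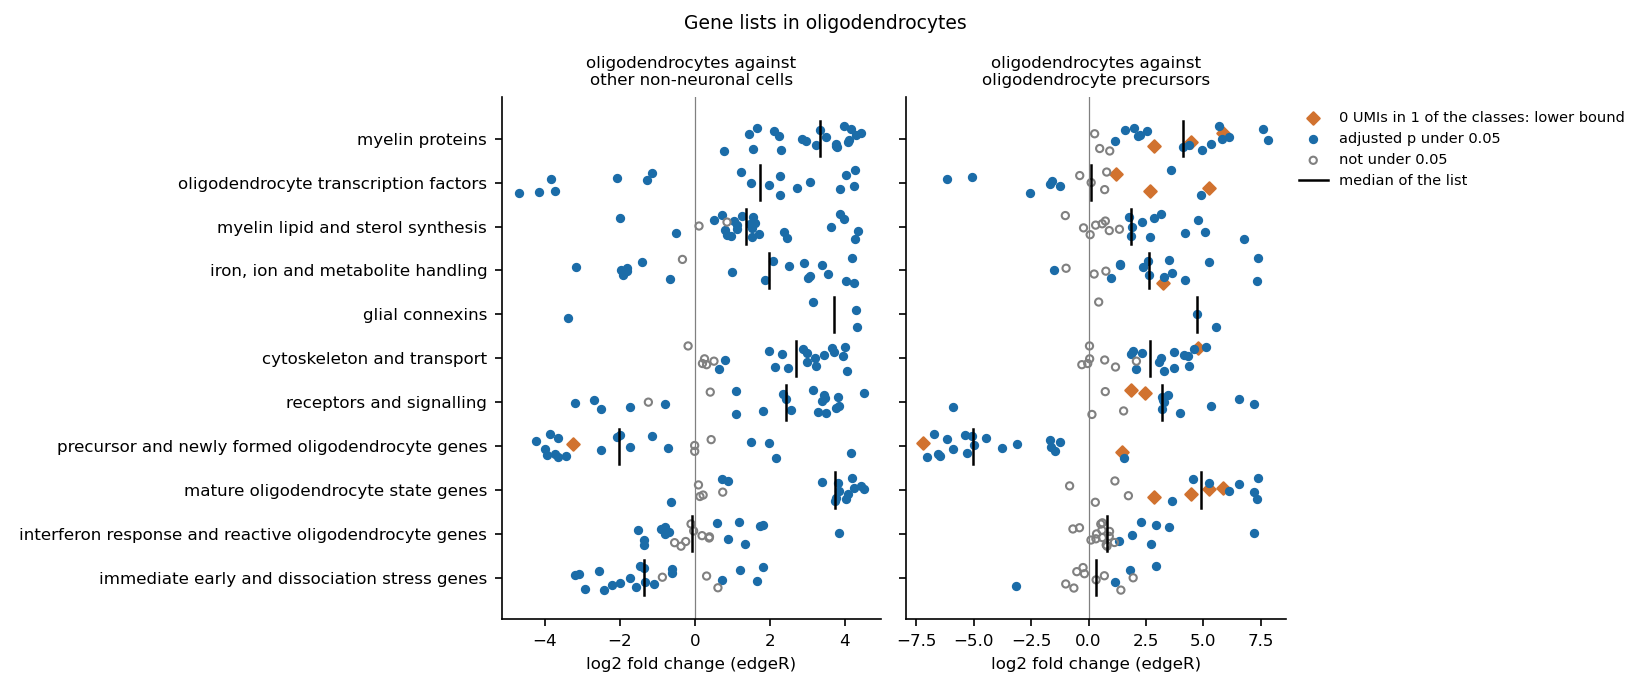
Log2 fold changes of the genes of 11 lists in mature oligodendrocytes against other non-neuronal cells (left) and against precursors (right); filled points have an adjusted p under 0.05, diamonds are lower bounds for genes with no UMI in 1 class, and black bars are list medians. All 21 myelin protein genes on the left lie above 0, and the median of precursor and newly formed genes is -2.03 on the left and -5.03 on the right.

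Compared with precursors, the nearest class of the same lineage, mature oligodendrocytes carried more RNA of myelin proteins and of iron, ion and metabolite genes. They carried less of most listed precursor and newly formed genes, but more of Enpp6 and Bcas1, which belong to newly formed cells. Precursors were cells with at least 2 UMIs of Pdgfra and Cspg4 and none of the myelin gate genes: 9, 39 and 28 cells in libraries 1 to 3. Of 4150 genes tested with edgeR, 571 (13.8%) were higher in members and 433 (10.4%) lower. Both classes were gated on their own RNA, so these counts again describe the cells chosen.

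The precursor gate also caught cells of vessel walls. Pdgfra and Cspg4 are known from fibroblasts and pericytes too, and 58 of the 76 cells held a UMI of Olig1, Olig2 or Sox10. Another 11 held none of those 3 genes and at least 3 UMIs of the mural genes Rgs5, Kcnj8, Acta2, Tagln and Higd1b. The mural markers summed to 8960, 1596 and 1966 CPM in the precursors of libraries 1 to 3, against 43.4, 124 and 205 CPM in members, and the fibroblast markers to 1748, 738 and 491 CPM against 10.9, 13.2 and 13.9 CPM. A repeat used the 56 precursors without a UMI of those mural genes or of Dcn, Lum, Col1a1 and Col1a2, a choice made after the data were seen. Vtn and Igf2, which the sums include, did not enter that choice. In the repeat 1153 of 3839 genes passed, of which 845 were shared with the first comparison and 75.2% were higher in members rather than 56.9%. Each gene named from this comparison by size still passed there.

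10 genes were at 0 UMIs in all precursors and above 115 CPM in every library of members; libraries lay apart in this direction for 16.3% of all genes. Opalin was at least 57.8-fold higher in members, taking 3 UMIs over the whole precursor group as the limit that a count of 0 allows. Nkx6-2 was at least 37.8-fold higher, Tppp3, a tubulin-binding protein, at least 27.1-fold and Hapln2, a link protein of the node of Ranvier, at least 22.3-fold. Sez6l2, the pacemaker channel gene Hcn2, Tnni1, Tmbim1, Car14 and Gm15440 had bounds from 8.18-fold to 17.1-fold. Mal, a proteolipid of myelin rafts, had 2 UMIs in precursors and was 175-fold higher (interval 48.5 to 1448, counting error only).

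Several of the genes lowest in members are known from progenitors or from dividing cells. Neu4, a sialidase of premyelinating cells, was at 0 UMIs in all 1143 members and at 328, 160 and 155 CPM in precursors, so it was at least 146-fold lower. Ccnd1, the cyclin that drives entry into the cell cycle, was at 8.69, 6.62 and 6.50 CPM in members against 874, 598 and 1306 CPM, a log2 difference of -6.56 (SE 0.407). Top2a, a topoisomerase of dividing cells, had 1 UMI in members against 328, 180 and 103 CPM in precursors. Ptprz1 was at 21.7, 23.6 and 12.1 CPM against 1202, 2094 and 1810 CPM, a log2 difference of -6.16. The libraries did not overlap for any of these 4 genes, as for 22.4% of all genes in that direction. C1ql1 (-7.02), the proteoglycan Vcan (-6.74), Cacng4 (-6.45), the fatty acid binder Fabp7 (-6.29) and Tmem100 (-5.95) followed, together with 2810417H13Rik (-7.08), 3110035E14Rik (-6.79) and the division gene Cks2, which had 3 UMIs in members.

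**Figure D4:**
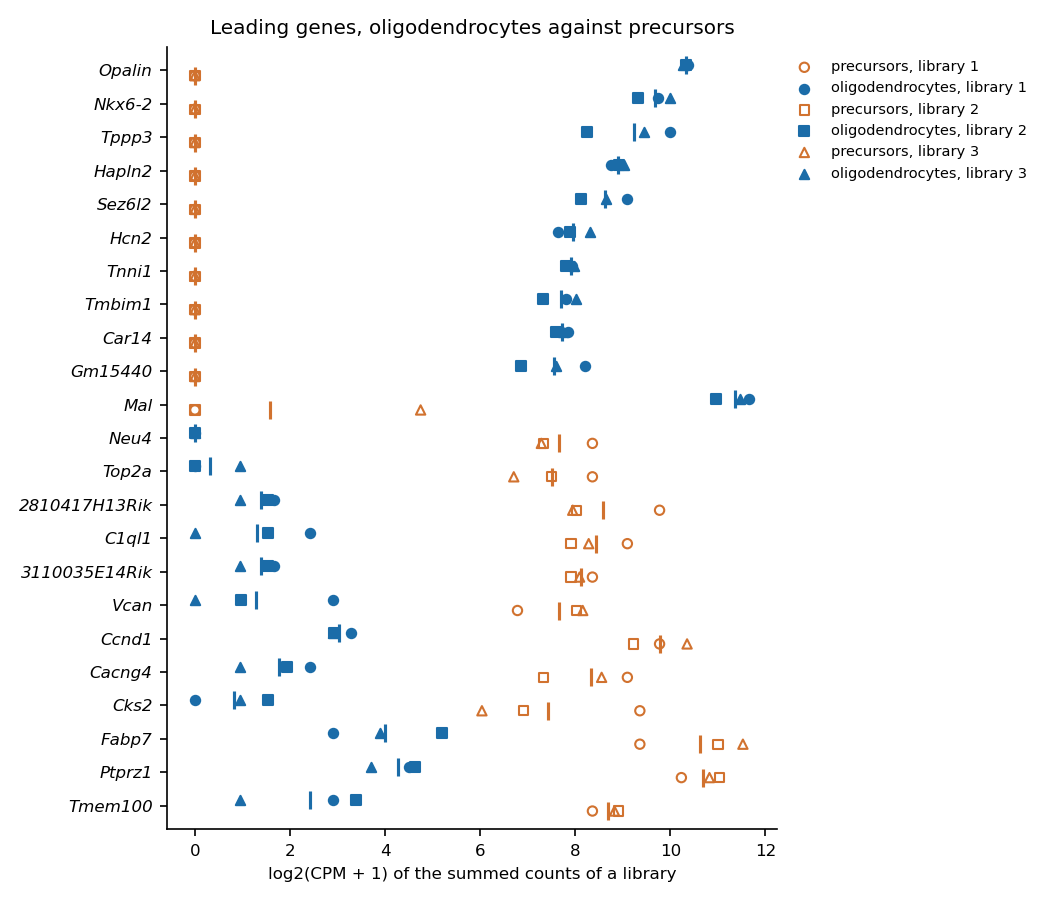
Levels of the named genes that were higher (top, Opalin to Mal) and lower (bottom, Neu4 to Tmem100) in mature oligodendrocytes (filled) against gated precursors (open), as log2(CPM + 1) of the summed counts of each library, with bars for the mean of 3. The first 10 genes are at 0 in the precursors of all 3 libraries, and Neu4 is at 0 in all 3 libraries of members; no gene overlaps between the classes.

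Factors of the whole lineage were present in both classes. Sox10 was at 306, 191 and 290 CPM in members and at 328, 259 and 349 CPM in precursors; its log2 difference of 0.12 (SE 0.329) did not pass the test, which does not show that the levels are equal. Its sign is opposite to that of the CPM, which are scaled to the total UMIs of each sum while the fitted difference uses TMM factors, so no direction is given for Sox10. Olig1 was lower in members with 545, 524 and 666 CPM against 1093, 1975 and 2354 CPM (log2 difference -1.25), and Olig2 with 115, 96.4 and 164 CPM against 437, 598 and 543 CPM (-1.69). Myrf had no UMI in precursors and was at least 6.42-fold higher in members. Bcas1, a marker of newly formed cells, was higher in members with 256, 208 and 243 CPM against 109, 120 and 90.5 CPM (1.55). Gjc3 was at 269, 223 and 197 CPM against 109, 239 and 207 CPM and did not pass.

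By list, and beside 13.8% higher and 10.4% lower of all genes, 18 of 21 myelin protein genes were higher than in precursors and 0 lower, and 14 of 18 iron, ion and metabolite genes were higher and 1 lower. Their medians were 4.37 (4.11 with genes at 0 UMIs set at their bound) and 2.62, against 0.15 over all genes. Trf was at 109, 160 and 12.9 CPM in precursors and Car2 at 0, 120 and 51.7 CPM, with log2 differences of 7.39 and 7.34. Fth1 was at 2404, 3451 and 2496 CPM in precursors, a log2 difference of 4.19. Precursor and newly formed genes were lower in 18 of 20 and higher in 2, Bcas1 and Enpp6. Of lipid and sterol genes 11 of 19 were higher, of receptors and signals 11 of 15 with 1 lower, of cytoskeleton genes 15 of 22, of transcription factors 5 of 15 with 6 lower, and of interferon and reactive genes 7 of 21. Serpina3n was at 109, 39.9 and 155 CPM in precursors (log2 difference 3.49) and the complement gene C4b at 109, 99.7 and 103 CPM (2.72), both higher in members. DESeq2 scaling moved the median of all genes by 0.35 toward the members. The precursor sums rested on 9152, 50136 and 77332 UMIs, and without library 2 or without library 3 no gene passed the adjusted test of edgeR, although 1105 and 773 genes had an unadjusted p under 0.05 and every called gene that was still tested kept its sign. DESeq2 on all libraries called 814 genes.

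Within the members, libraries and cells differed in state genes. At 1000 UMIs per cell, which 860 members reached (189, 416 and 255), Il33 had a UMI in 48.7% of cells of library 1 (95% interval 41.4 to 56.0%), in 73.8% of library 2 (69.3 to 78.0%) and in 78.4% of library 3 (72.9 to 83.3%). Before thinning the shares were 54.3%, 83.8% and 87.6%. Library 1 was the lowest both ways, and it is also the shallowest, with 225 of its 414 members left out. In microglia and macrophages, whose median depth was 1000.5 to 1101.5 UMIs, the thinned Il33 share was 0.93%, 4.29% and 4.48%. In astrocytes it was 8.8%, 15.1% and 14.3%, so the shares in members lie above those of both classes. Opalin had a UMI in 59.3%, 63.7% and 56.1% of members, and Klk6 in 49.2%, 42.3% and 56.1%, against 1.11% of microglia on average for Klk6. S100b, a calcium-binding protein of glia, had one in 54.0%, 22.8% and 24.7% of members, against 60.8%, 36.0% and 55.4% of astrocytes. Before thinning the S100b shares of members were 44.0%, 33.9% and 47.0%, so its order over libraries differs between the depths and none is read. Ptgds was found in 67.2%, 76.4% and 82.7%. Unthinned shares were 62.8%, 76.7% and 75.6% for Opalin, 43.0%, 48.2% and 76.3% for Klk6, and 70.5%, 86.6% and 90.6% for Ptgds.

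The state genes differed in how often they were found in the same cells. Cells with an Il33 UMI at that depth also held Opalin more often, in 67.4% against 51.5% in library 1, 72.3% against 39.4% in library 2 and 65.5% against 21.8% in library 3. Ptgds, the prostaglandin enzyme, went the same way, with means over libraries of 83.4% against 56.4%. S100b went the other way, with means of 27.3% and 50.7%, and so did Hapln2 with 30.8% and 40.1%, in each of the 3 libraries. Cells with Klk6, in turn, held Opalin in 49.8% on average against 69.7% and Ptgds in 62.0% against 87.7%, but Serpina3n in 56.3% against 30.5%. Serpina3n was also found more often in cells with Il33, in 46.8% on average against 32.3%. These shares describe cells of the same 3 libraries and carry no test.

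The members with and without an Il33 UMI at 1000 UMIs were then summed per library on their raw counts, with 92, 307 and 200 cells with it and 97, 109 and 55 without. Cells with Il33 RNA carried more RNA of 7 listed interferon and reactive genes and of Psmb8, and less of Plin3, Pmp22 and Klk6. Median depth was alike, with 1302, 2178 and 4149 UMIs against 1345, 2140 and 4112. Of 3404 genes tested with edgeR, 37 (1.09%) were higher and 28 (0.823%) lower, 1.91% in all, and 361 had an unadjusted p under 0.05. The count depends on the test: DESeq2 called 9 genes, of which 6 were shared, edgeR without the library block called 0 (80 unadjusted), and leaving out library 2 left 3 and library 3 left 20. All 65 genes kept their sign under these settings wherever they were still tested. With cells divided by Il33 in their raw UMIs, 54 genes passed, and 63 of the 64 still tested kept their sign.

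Psmb8, a subunit of the immunoproteasome, was at 154, 434 and 152 CPM in cells with Il33 and at 95.0, 149 and 84.1 CPM in cells without. Its log2 difference was 1.23 (SE 0.183, adjusted p 4.83e-06 by edgeR), and the libraries did not overlap, which held for 3.29% of all genes in this direction and 3.73% in the other. Library 2 was the highest of both groups, and without it the log2 difference was 0.79 (adjusted p 0.376 by edgeR). Over the 13 alternatives it ran from 0.79 to 1.66, with adjusted p in edgeR and DESeq2 from 3.15e-09 to 0.999. Ifit1, an interferon-induced RNA-binding protein, was at 132, 314 and 272 CPM against 44.3, 183 and 115 CPM, a log2 difference of 1.04 (adjusted p 3.85e-05 by edgeR), with overlapping libraries but the same direction in each. Its difference ran from 0.44 in thinned cells to 1.31 without library 2, with adjusted p in edgeR and DESeq2 from 1.6e-06 to 0.999. Slc9a3r2, a scaffold of membrane transporters, was at 176, 295 and 309 CPM against 108, 130 and 164 CPM (log2 difference 1.0), and Tnni1 at 287, 249 and 290 CPM against 177, 157 and 115 CPM (0.91). Neither overlapped. The tetraspanin Cd63 (0.69) and the actin regulator Arpc1b (0.65) were also higher in all 3 libraries.

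Plin3, a coat protein of lipid droplets, was lower in cells with Il33: 125, 50.1 and 78.4 CPM against 190, 164 and 288 CPM, a log2 difference of -1.59 (SE 0.204, adjusted p 1.01e-07 by edgeR). Pmp22, a myelin protein best known from peripheral nerve, was at 66.2, 211 and 270 CPM against 228, 435 and 544 CPM, a log2 difference of -1.09 (adjusted p 7.95e-08 by edgeR). The Plin3 groups did not overlap, and the Pmp22 groups overlapped across libraries while each library showed the fall. Over the alternatives Plin3 ran from -1.81 to -1.29 and Pmp22 from -1.16 to -1.01, and both lost the call without the library block and without the low-count filter, Plin3 also without library 3 (-1.29, adjusted p 0.0507 by edgeR; 3.01e-12 to 0.999 over all alternatives). Serpinb1a (-0.92), Tpd52 (-0.82), Sypl (-0.81) and Zdhhc20 (-0.79) were lower too. Klk6 was at 1184, 1286 and 1580 CPM against 1356, 1650 and 2513 CPM, a log2 difference of -0.43 (adjusted p 0.000969 by edgeR).

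**Figure D5:**
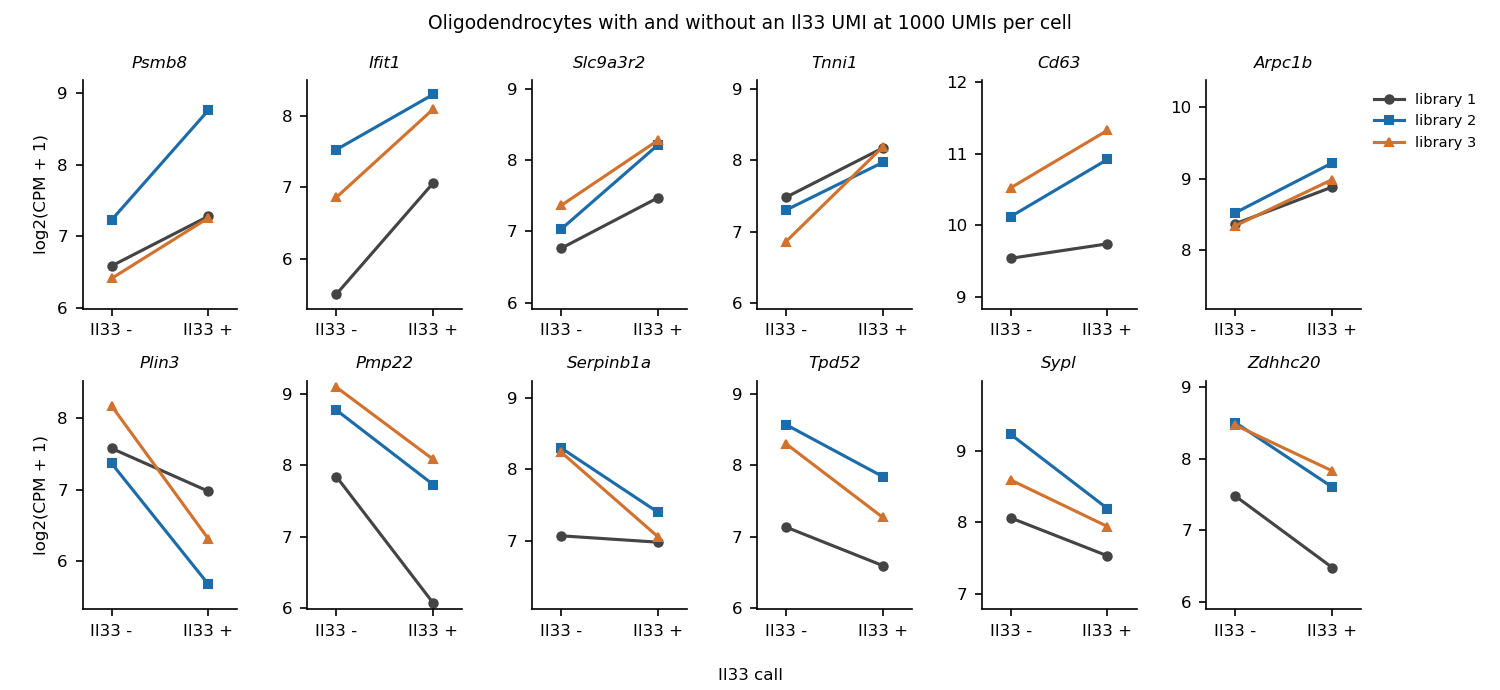
Levels of the 6 genes with the largest rise (top) and the 6 with the largest fall (bottom) in oligodendrocytes with an Il33 UMI at 1000 UMIs per cell, as log2(CPM + 1), with 1 line per library from cells without (left) to cells with Il33 (right); every panel spans the same number of log2 units. All lines of the top row rise and all of the bottom row fall, from 190, 164 and 288 to 125, 50.1 and 78.4 CPM for Plin3.

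Of the 19 interferon and reactive genes tested in that split, 7 were higher and 0 lower, with a median of 0.43 against 0.00 over all genes. They were Irgm1 (log2 difference 1.21), Irf7 (1.15), Isg15 (1.13), Ifit1, Ifit3 (0.69), Serpina3n (0.62) and the MHC class I gene H2-D1 (0.39). Ifit3 was at 73.5 CPM in cells with Il33 and 101 CPM in cells without in library 1, against the direction of libraries 2 and 3. None of the 19 passed with DESeq2 or without library 2, and 1 passed without library 3. In other lists, beside 1.09% higher and 0.823% lower of all genes, 1 of 21 myelin protein genes was higher (Cd9, 0.58) and 2 lower (Pmp22 and Hapln2, -0.73), 0 of 12 transcription factors passed, 1 of 20 lipid genes was higher (Pex5l, 0.52), and 2 of 15 mature state genes were higher (Ptgds 0.54, Qdpr 0.35) and 3 lower (Klk6, Hapln2, Anxa5 -1.05). Opalin was at 1221, 1436 and 1418 CPM against 1159, 844 and 535 CPM and S100b at 787, 243 and 281 CPM against 1501, 814 and 1287 CPM; both had the same direction in 3 of 3 libraries but did not pass, with adjusted p of 0.586 and 0.24 in edgeR. Markers of microglia summed to 272, 744 and 134 CPM in cells with Il33 and 754, 1020 and 159 CPM in cells without, and those of astrocytes to 404, 669 and 386 CPM against 729, 695 and 535 CPM; their part in the result was not tested.

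The FLiCRE constructs were rare in oligodendrocytes. mCherry, taken here to be the reporter, had 61 UMIs in 57 of the 1143 members, with at most 2 in a cell, and the share of cells was 0.97%, 9.94% and 2.63% in libraries 1 to 3. In gated neurons 544 of 3192 cells held mCherry, with up to 193 UMIs in a cell. At 1000 UMIs per cell the mean share was 2.12% in members, 1.43% in microglia and macrophages and 5.05% in neurons. Whether the UMIs in members are free RNA or RNA of the cells themselves was not tested. TEV, the protease, had 42 UMIs in 39 members and tTA, the transcription factor, 25 in 24. Against the other non-neuronal cells mCherry was at 8.69, 47.3 and 6.50 CPM in members and 17.3, 92.0 and 27.6 CPM in the reference, a log2 difference of -0.94 (SE 0.287) that passed the test with overlapping libraries. The reference held 294 mCherry UMIs in 194 of 3467 cells, 75 of them in a single cell. The call was lost under 8 of 13 alternatives, among them without library 2 and without library 3, with adjusted p in edgeR and DESeq2 from 0.0195 to 0.559 over all 13. TEV and tTA had log2 differences of -1.11 and -1.42, and neither stayed under 0.05 in all alternatives. Their adjusted p in edgeR and DESeq2 ran from 0.0103 to 0.0944 for TEV and from 0.0126 to 0.0828 for tTA.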

How the data were processed

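Per the labels, the authors used the version 2 chemistry of the 10x 3′ kit for 3 libraries. They deposited raw UMI counts for each cell in a single pooled matrix of 28001 features, of which 3 are the constructs mCherry, TEV and tTA. Cell Ranger 3.0 and mm10 are named in the submitters' processing notes. The rule that called cells and the annotation release are not given in the sources used here. Libraries are numbered by barcode suffix; nothing ties a suffix to a labelled replicate, so the number is only a name.

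The members and all gene lists were chosen with earlier results of these data known. Counts were summed per library and class (members 460565, 1057698 and 1076556 UMIs) and compared with edgeR 4.0.16 (R 4.3.3): glmQLFit with a robust prior, TMM, filterByExpr, library as block, Benjamini-Hochberg at 0.05. Each library supplies both sums of its pair, so the pairing comes from the design, and same-library deviations correlated at 0.39 to 0.55, 0.11 to 0.25 and 0.40 to 0.64 in the 3 comparisons. CPM are summed counts scaled to 1000000. Named genes are up to 12 in each direction (6 in the Il33 split) by log2 fold change among genes past the threshold, with 1 sign in 3 libraries and at least 200 CPM in the higher class, plus up to 4 per list and direction.

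The other non-neuronal cells had 1506112, 2391714 and 1737806 UMIs. Doublets were not removed in the main analysis; the highest Scrublet scores (scanpy 1.11.5; 44, 296 and 28 cells, 7, 17 and 2 of them members) were left out as an alternative, because its automatic threshold marked 53, 2 and 16 cells. Thinning drew 1000 UMIs per cell, and cells with fewer were left out. On simulated counts the test recovered 30.1% of genes changed by log2 1 and 93.6% by log2 2 against other non-neuronal cells, 0% and 25.4% against precursors, and 42.2% and 100% in the Il33 split. Other alternatives were DESeq2 1.42.0, no low-count filter, no block, the default prior, a stricter gate, at most 10% mitochondrial UMIs, Il33 called on raw UMIs and leaving out each library. Some genes are not reported here.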

Additional observations from a re-analysis of the deposited data

How the results depend on the processing

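Against other non-neuronal cells, 4936 genes passed, and 13 alternatives gave from 2512 (cells thinned to 1000 UMIs) to 5695 (no filter on low counts); leaving out 1 library gave 3729 to 4539. Of the called genes that thinning left testable, 3335 of 3352 kept their sign. Against precursors 1004 genes passed. No low-count filter gave 1611 and thinning gave 372. Precursors with both Pdgfra and Cspg4 gave 293, with 73.4% higher in members, and leaving out 1 library gave 0 to 506; the share higher in members was 66.2% without the filter and 66.7% after thinning. In the Il33 split 65 genes passed, with 9 by DESeq2, 1 without the filter, 20 after thinning and 3 to 94 without 1 library. Without the replicate block the counts were 3796, 914 and 0. The cause of these shifts was not tested, beyond the fewer samples or genes of each alternative. Opalin had a UMI in 71.7% of members at full depth and 59.7% at 1000 UMIs. Of single-gene results against other non-neuronal cells, 13 of 349 lost their call, all of them construct features; against precursors 44 of 340 and in the Il33 split 53 of 156 did, and none changed sign. Library 1 gave 9 precursors with 9152 UMIs to the precursor comparison. There, no change of log2 1 was recovered on counts of the 3 libraries simulated with a dispersion of 0.05 and no library effect.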
